A study of Mus musculus with 6 samples.

Results

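The liver keeps its identity through a small network of transcription factors, and 8 of their genes are described here: Hnf4a, Onecut1, Onecut2, Foxa1, Foxa2, Foxa3, Cebpa and Prox1. All 8 are on the array, each with 1 probe set under its own symbol, out of 30701 genes that the platform annotation names singly. The gene names were chosen by earlier results of the same arrays, in which the group means of Hnf4a and Onecut1 stood apart, and each probe set was selected on its mean over all 6 arrays. Their difference between the groups is therefore given as a description, without a test of its own.

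The arrays measured total RNA from the livers of male mice aged 8 weeks on 6 arrays. In the HFD-inulin group (n = 3) the mothers had received inulin, a fermentable plant fibre, and in the HFD group (n = 3) the mothers had a high-fat diet. Both titles carry HFD, and what the mice themselves ate, their strain, their litters and the timing of the maternal treatment are not in the labels, so the comparison is read as labelled. Whether each array is a separate mouse, and whether mice of one group had different mothers, is not stated, so the spread between arrays may be partly shared or technical. The number of arrays limits the precision. Values listed per group below follow the order of its arrays, 1 to 3.

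HNF4A is a nuclear receptor that binds DNA as a homodimer at direct repeats and keeps genes of lipoprotein, bile acid, clotting and glucose metabolism active in hepatocytes. The ONECUT factors, named for a single cut domain beside a homeodomain, act with it in liver and biliary development, and the FOXA proteins are forkhead pioneer factors that open hepatic enhancers before other factors bind. C/EBPα, a basic leucine zipper protein, and the homeobox protein PROX1, which can act as a co-repressor of nuclear receptors, complete the group. Many of these factors bind in one another's promoters and enhancers.

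The promoters of the members apart between the groups, Hnf4a and Onecut1, are shown with that of Foxa2, a known ONECUT1 target, because 1 probe set per gene cannot tell which start site was used. Each line gives the 250 bases before a RefSeq transcript start (build GRCm38.p6). Hnf4a has a pair of starts 40.3 kb apart, the upstream promoter P2 (chr2:163506607-163506856, plus strand) and the downstream promoter P1 used by most adult hepatocyte transcripts (chr2:163546905-163547154, plus strand). The Onecut1 window is chr9:74861671-74861920 on the plus strand, and the outermost Foxa2 window is chr2:148046970-148047219 on the minus strand. Capitals mark the letters ATCAAT of the ONECUT core or GTTAAT of the HNF1 core, on either strand.
Hnf4a P2: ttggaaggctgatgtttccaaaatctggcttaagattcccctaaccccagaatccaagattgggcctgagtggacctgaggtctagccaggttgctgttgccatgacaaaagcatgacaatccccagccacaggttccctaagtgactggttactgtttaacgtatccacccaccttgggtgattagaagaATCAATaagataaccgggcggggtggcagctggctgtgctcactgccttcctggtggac
Hnf4a P1: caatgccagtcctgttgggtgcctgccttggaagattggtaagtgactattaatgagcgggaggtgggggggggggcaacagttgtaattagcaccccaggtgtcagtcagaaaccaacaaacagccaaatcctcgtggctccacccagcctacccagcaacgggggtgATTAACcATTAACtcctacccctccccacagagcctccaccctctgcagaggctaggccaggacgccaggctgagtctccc
Onecut1: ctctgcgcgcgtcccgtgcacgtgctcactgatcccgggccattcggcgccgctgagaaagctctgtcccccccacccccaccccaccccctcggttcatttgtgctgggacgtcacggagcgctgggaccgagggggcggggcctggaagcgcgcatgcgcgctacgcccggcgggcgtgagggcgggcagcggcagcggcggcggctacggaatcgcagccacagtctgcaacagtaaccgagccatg
Foxa2: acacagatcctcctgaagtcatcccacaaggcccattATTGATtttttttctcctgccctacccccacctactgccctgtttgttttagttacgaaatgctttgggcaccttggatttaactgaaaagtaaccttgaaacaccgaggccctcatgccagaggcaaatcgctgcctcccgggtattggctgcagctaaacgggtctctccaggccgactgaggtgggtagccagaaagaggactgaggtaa

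The ONECUT letters lie 59 bases before the start in Hnf4a P2 and 213 bases before it in the outermost Foxa2 window. Foxa2 has 3 windows, and the other windows hold no ONECUT letters. In Hnf4a P1 the HNF1 letters occur 2 times, 81 and 74 bases before the start. Across 32851 RefSeq windows of the same length, 6.72% hold the ONECUT letters and 6.43% the HNF1 letters. The Onecut1 window holds neither and is rich in G and C (71.6%, against a median of 52.4% over all windows), with 31 CpG pairs. RefSeq windows were found for 7 of the 8 members, 11 windows in all, and not for Onecut2. Of these 11, 2 hold the ONECUT letters, 2 the HNF1 letters and 1, that of Foxa1, the FOXA letters TGTTTAC, which 3.17% of all windows hold. The letters TTGCNNAA, searched for C/EBP factors, and AGGTCA, a nuclear receptor core, are in none of the 11 member windows, and in 9.56% and 14.0% of all windows. No motif overlaps another in these windows. A match is a run of letters and was not shown to be bound here.

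**Figure D1:**
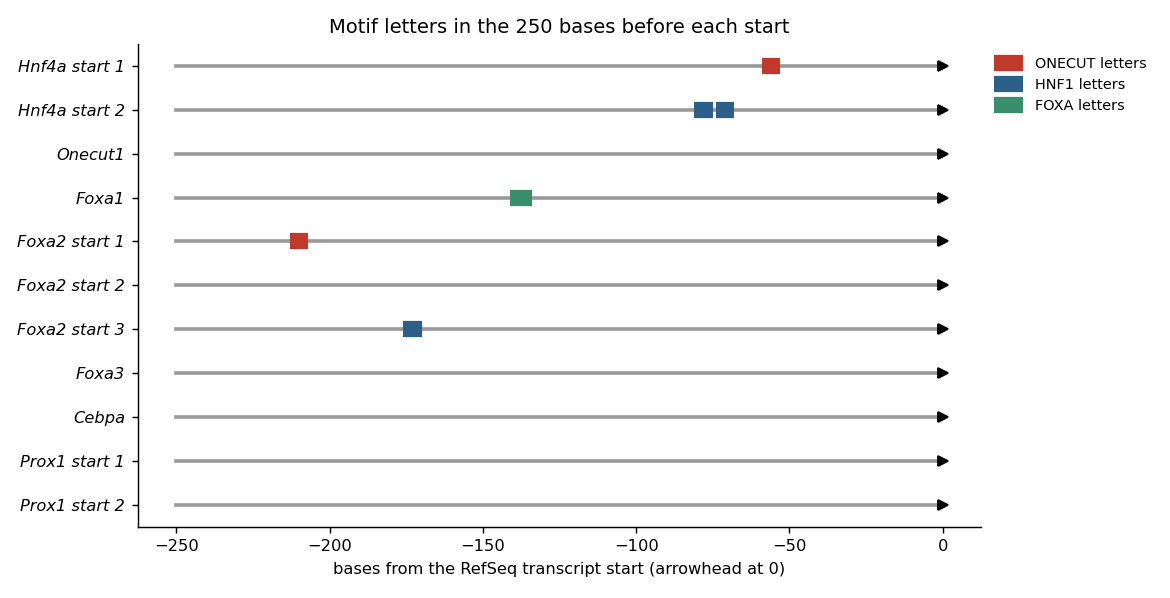
Motif letters in the 250 bases before each RefSeq start of 7 members; the x axis gives bases from the start, the arrowhead marks the start, and coloured blocks mark ONECUT, HNF1 and FOXA letters on either strand. The ONECUT letters fall 59 bases before the first Hnf4a start and 213 bases before the first Foxa2 start, and the HNF1 letters fall 81 and 74 bases before the second Hnf4a start.

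The tissue is labelled liver, and all 7 measured hepatocyte markers, albumin and transferrin among them, had group means between 10.04 and 11.6. The mean over these markers differed little between arrays, from 10.8 to 10.9 in either group, but the markers did not move together. In HFD-inulin array 2, Ttr, Alb and Cyp2e1 were at their lowest of the 6 arrays, and Fgb, Ahsg and Apoa1 at their highest. Markers of other cells were also read by list means, without setting one list's level against another's, since probes differ. Sinusoidal endothelial markers ran from 4.82 to 4.98 over the 6 arrays, lymphocyte markers from 1.23 to 1.43 and pancreas markers from 2.17 to 2.28. The arrays do not fall apart by group in their main component of variance (53.1%). HFD-inulin arrays 1 and 2 and HFD array 1 lie on one side of it, and the mean of 245 chromosome Y probe sets with shared profiles was 1.34 to 1.91 in them and 2.99 to 3.24 in the other 3. These are called low-signal and high-signal arrays below, and the cause of this split is not known. Each part of it has a single array of one group.

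By limma, 0 of the 8 members passed an adjusted p of 0.05, as did 0.0% of the 65956 probe sets on the array. An unadjusted p under 0.05 was reached by 3399 probe sets (5.15%), Hnf4a and Onecut1 among them. In 2 of the 8 members the groups did not overlap, Hnf4a with HFD-inulin lower and Onecut1 with HFD-inulin higher. Among all named genes the groups did not overlap in 11.5% (6.05% lower and 5.41% higher), and among those with a mean log2 signal of at least 4, as all 8 members have, in 16.9% (5.02% lower and 11.9% higher). Since these 2 genes brought the list about, nothing is read from their count.

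Of the 8 genes, Hnf4a had the smallest SD in each group. Its log2 signal was 6.86, 6.86 and 6.77 across the HFD-inulin livers, against 7.38, 7.46 and 7.44 across the HFD livers. All 3 HFD-inulin arrays lie below all 3 HFD arrays, with a gap of 0.52 between the nearest values. The means were 6.83 ± 0.048 and 7.43 ± 0.044 (SD, n = 3 each), a difference of -0.60 (SE 0.063), or 1.51-fold lower in HFD-inulin. Within the split it was -0.52 (low-signal) and -0.68 (high-signal). Groups that do not overlap must give the same sign in both parts, so this sign adds no support. In a bulk sample, less RNA per hepatocyte and fewer hepatocytes cannot be told apart. The hepatocyte marker means were 10.8 to 10.9 in HFD-inulin and 10.8 to 10.9 in HFD, with 3 of the 7 markers higher in HFD-inulin and 4 lower. Of these markers Ttr, Alb and Apoa1 are themselves on the target lists below, and the number of hepatocytes was not tested.

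Onecut1 encodes HNF6, a factor of hepatocyte and bile duct development that also acts in adult glucose and bile acid metabolism. Its log2 signal was 5.81, 5.56 and 4.51 across the HFD-inulin livers, against 4.27, 3.53 and 3.52 across the HFD livers. The groups did not overlap, but HFD-inulin array 3 and HFD array 1 were only 0.24 apart, and the low-signal arrays were the high ones within each group. The means were 5.29 ± 0.69 and 3.77 ± 0.43 (SD, n = 3 each), a difference of 1.52 (SE 0.37), or 2.87-fold higher in HFD-inulin. Low-signal arrays gave 1.42 and high-signal arrays 0.99. In a fit that blocks on the split Onecut1 differed by 1.202 (SE 0.12). The arrays thus differ in Onecut1 along the split as well as between the groups, and the part of the split in the pooled difference was not tested further.

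Onecut2, the paralogue that overlaps with Onecut1 in the developing liver, did not share this pattern. It measured 5.22, 5.30 and 5.10 across the HFD-inulin livers, against 5.27, 5.14 and 5.11 across the HFD livers, a difference of 0.04 (SE 0.080). The groups overlap, and all 6 arrays lie within 0.20 of each other. The sign of the difference depends on the arrays used, being -0.01 in a fit that blocks on the split and again -0.01 when HFD-inulin array 2 is left out. Whether Onecut1 and Onecut2 differ in their response was not tested.

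**Figure D2:**
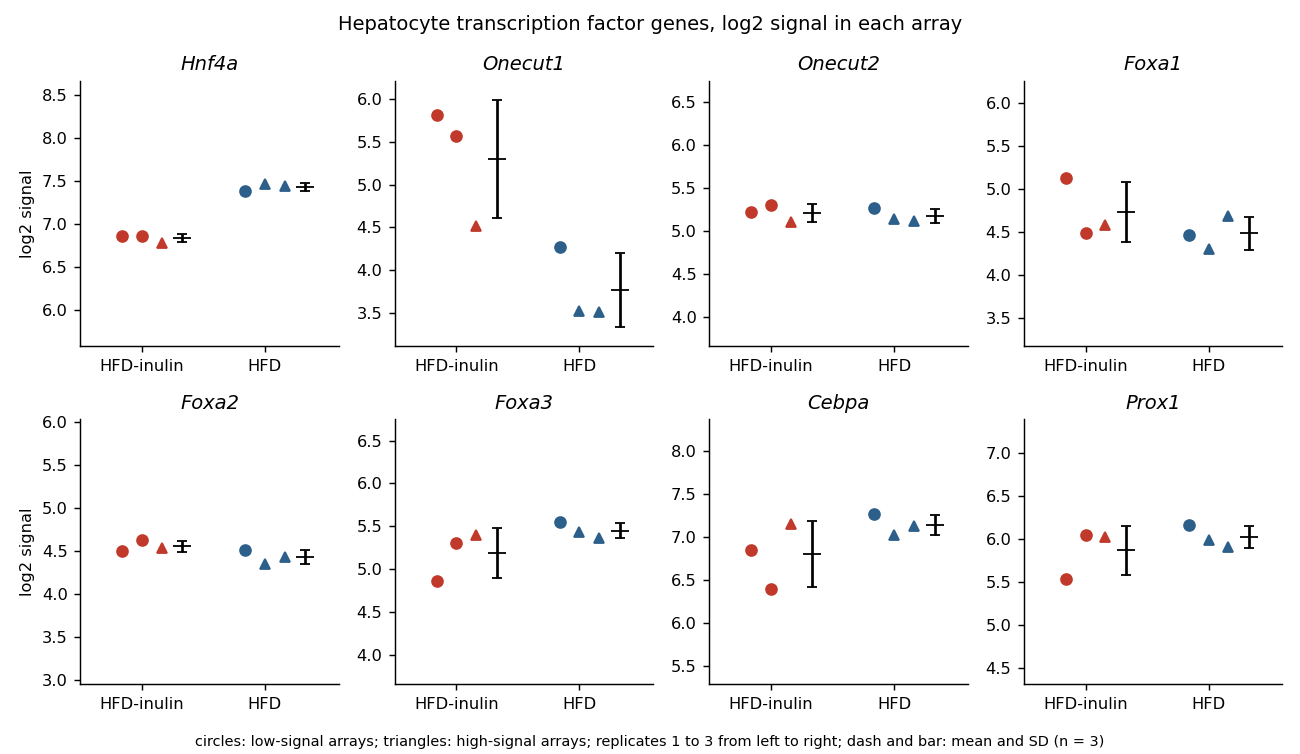
Log2 signal of the 8 genes in each array (y axis, same span in every panel) by group (x axis); circles are low-signal and triangles high-signal arrays, and the dash with its bar is the mean with SD (n = 3). Hnf4a sits at 6.77 to 6.86 in HFD-inulin and 7.38 to 7.46 in HFD, Onecut1 at 4.51 to 5.81 and 3.52 to 4.27, and the groups overlap in the other 6 genes.

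The 3 forkhead genes gave small and unlike differences. Foxa1, which binds compacted chromatin ahead of nuclear receptors, measured 5.13, 4.50 and 4.58 across the HFD-inulin livers, against 4.47, 4.30 and 4.69 across the HFD livers. Only HFD-inulin array 1 exceeded the HFD arrays, and the difference of 0.25 (SE 0.19) was 0.05 without it. Foxa2, needed for liver specification and bile acid balance, measured 4.50, 4.62 and 4.53 against 4.51, 4.35 and 4.43 in the same order. Of the HFD-inulin arrays, 2 lay above every HFD array, and the difference was 0.12 (SE 0.072), larger than the SD of either group (0.066 and 0.080) though the groups overlap. Foxa3, the forkhead gene most tied to the adult liver, measured 4.86, 5.31 and 5.40 against 5.55, 5.43 and 5.37. HFD-inulin arrays 1 and 2 lay below every HFD array, array 1 by far more, the difference was -0.26 (SE 0.15), and without that array it was -0.09. For Foxa3 the low-signal arrays gave -0.46 and the high-signal arrays 0.00017. The limma adjusted p of each FOXA gene lay at 0.902 or 0.909.

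Cebpa drives metabolic genes of the mature hepatocyte and restrains proliferation. It measured 6.85, 6.39 and 7.16 across the HFD-inulin livers, against 7.26, 7.03 and 7.12 across the HFD livers. HFD-inulin arrays 1 and 2 were below every HFD array and array 3 was among them. The difference was -0.34 (SE 0.19, limma adjusted p = 0.902), and leaving out HFD-inulin array 2 gave -0.13. The low-signal arrays gave -0.64 and the high-signal arrays 0.08. Prox1, which is also the master factor of lymphatic endothelium, measured 5.54, 6.05 and 6.02 against 6.16, 5.99 and 5.91. HFD-inulin array 1 alone was low, the difference was -0.15 (SE 0.15, limma adjusted p = 0.928), and without that array it was 0.02. Lymphatic endothelial markers (4 measured) averaged 2.75 to 2.89 in HFD-inulin and 2.81 to 2.92 in HFD. This average rests mostly on Flt4 (mean 4.46) and Lyve1 (4.17), while Pdpn (1.98) and Mmrn1 (0.77) had low signal. The part of lymphatic endothelium in the Prox1 values was not tested.

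Across the 8 genes, 4 means were higher in HFD-inulin and 4 lower, with a median difference of -0.06 (0.0020 without HFD array 1, 0.023 when HFD-inulin array 1 is left out), against -0.01 over all named genes and 0.08 over named genes with a mean of at least 4. Cebpa and Prox1 had opposite signs in the parts of the split, and Foxa3 was near 0 in the high-signal arrays. Hnf4a, Onecut1, Foxa1 and Foxa2 had the sign of the pooled difference in both parts. For Hnf4a and Onecut1 this was fixed, since their groups do not overlap. Onecut2 lay just below 0 in both parts (-0.0067 and -0.022).

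**Figure D3:**
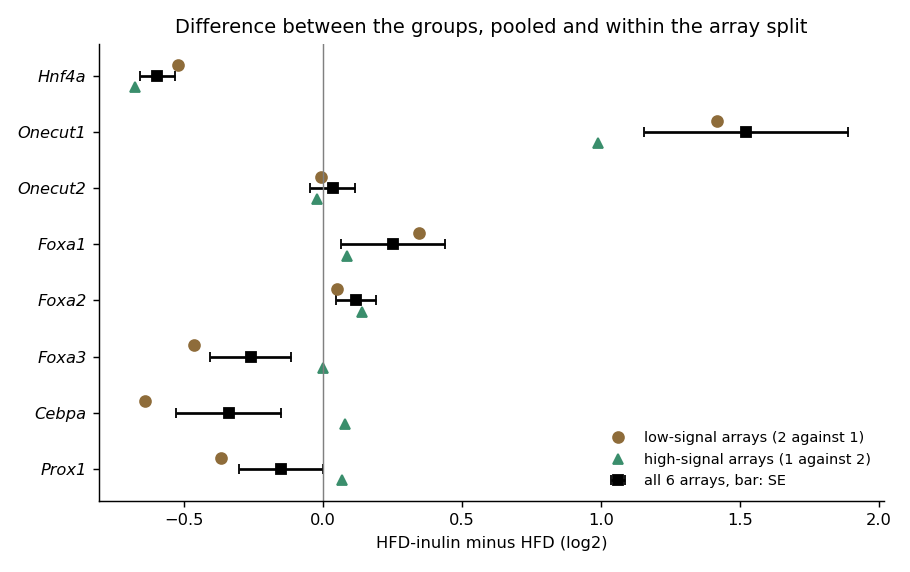
Difference HFD-inulin minus HFD on the log2 scale (x axis) for each gene (y axis), from all 6 arrays with its SE (squares) and within the low-signal (circles) and high-signal arrays (triangles). Hnf4a is at -0.60, -0.52 and -0.68 and Onecut1 at 1.52, 1.42 and 0.99, while Cebpa is at -0.34, -0.64 and 0.08.

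Relatives of the members differed little, but several had low signal, where a difference is hard to see. Hnf4g (mean 0.79), Nr2f1 (1.36) and Prox2 (1.71) lay near or below the median probe set (1.22). Cebpb (6.02), Nr2f6 (4.63) and Cebpg (4.32) were the brightest. Of 13 measured paralogues and relatives, 0 passed limma's threshold, 0 had an unadjusted p under 0.05, 0 had groups that did not overlap, and the differences ran from -0.19 to 0.11. Cux1, a cut homeobox gene with several cut domains, differed by 0.11 (SE 0.085) and Prox2 by 0.08. Nr2f2, the orphan receptor COUP-TFII that can bind HNF4A sites, differed by -0.08, and the C/EBP gene Cebpd by -0.19. Onecut3 averaged 2.81 ± 0.088 (HFD-inulin) and 2.88 ± 0.17 (HFD, SD, n = 3 each).

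Of 20 measured other liver-enriched transcription factors, 12 had a higher and 8 a lower HFD-inulin mean. The median difference was 0.03, from 0.0033 without HFD array 3 to 0.12 without HFD-inulin array 3. Of the 20, 0 passed limma's threshold (3 had an unadjusted p under 0.05, as had 5.15% of all probe sets). In 3 of the 20 (15.0%) the groups did not overlap, near the 11.5% and 16.9% of the backgrounds above. Hhex, a homeobox gene needed for the liver bud, measured 4.08, 3.85 and 4.30 across the HFD-inulin livers, against 3.63, 3.44 and 3.51 across the HFD livers. All HFD-inulin values exceed all HFD values, by a mean difference of 0.55 (SE 0.12), 0.33 among low-signal and 0.82 among high-signal arrays. Tbx3, a T-box gene of hepatoblast expansion, measured 4.32, 4.27 and 4.03 against 3.97, 3.64 and 3.75. It too stood apart, with a difference of 0.42 (SE 0.11), 0.33 and 0.34 within the split. Ppara, the fatty acid sensing receptor, was the third, lower by a mean of 0.16 on the log2 scale (-0.16, SE 0.067), and the bile acid receptor gene Nr1h4 differed by 0.20. Their limma adjusted p did not pass, at 0.902 for each.

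Co-regulators, through which these factors act on chromatin, were lower in 8 of 11 measured genes, with a median of -0.10. Lower means were found in 16303 of the 30701 named genes and in 35.6% of those with a mean of at least 4. Of the 11, 0 passed limma's threshold (2 had an unadjusted p under 0.05, as had 5.15% of all probe sets). The groups did not overlap in 4 of the 11 (36.4%), 3 of them lower, where the backgrounds above are 11.5% (6.05% lower) of all named genes and 16.9% (5.02% lower) of those with a mean of at least 4. Crebbp, an acetyltransferase, differed by -0.18 (SE 0.068) and was lower in all 3 HFD-inulin arrays than in any HFD array. Nr0b2, which encodes the co-repressor SHP that binds HNF4A, differed by -0.35 (SE 0.14). Ppargc1a, which encodes the co-activator PGC-1α of HNF4A in gluconeogenesis, measured 2.92, 2.63 and 3.67 across the HFD-inulin livers, against 3.64, 3.55 and 3.90 across the HFD livers. HFD-inulin arrays 1 and 2 were the low ones and array 3 was not, so its difference of -0.62 (SE 0.26) came to -0.86 among low-signal and -0.05 among high-signal arrays. Ppargc1b differed by -0.27.

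Textbook targets of HNF4A were mostly lower in HFD-inulin. Of 26 measured, 21 had a lower mean, against 16303 of the 30701 named genes and 35.6% of those with a mean of at least 4. The median difference was -0.17, and 0 of the 26 passed limma's threshold (6 had an unadjusted p under 0.05, as had 5.15% of all probe sets). In 7 of the 26 (26.9%) the groups did not overlap, all 7 with HFD-inulin lower, against 6.05% lower in all named genes and 5.02% in those with a mean of at least 4. The targets are co-regulated and measured in the same 6 livers, so they are not separate observations. Pck1, the first committed enzyme of gluconeogenesis, measured 8.70, 8.98 and 9.51 across the HFD-inulin livers, against 9.65, 9.88 and 9.61 across the HFD livers. All HFD-inulin values lie below all HFD values, with array 3 close to them (difference -0.65, SE 0.20). Baat, which conjugates bile acids, differed by -0.31 (SE 0.11) and Apob, the structural protein of very low density lipoprotein, by -0.17 (SE 0.064). Abcg5, a transporter subunit that exports sterols into bile, was the exception among the 4 smallest p, with a higher mean (0.22, SE 0.088).

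The list difference rested mainly on HFD-inulin arrays 1 and 2. The mean of the 26 targets was -0.23, -0.65 and -0.05 relative to the HFD mean across the HFD-inulin livers, against 0.10, -0.07 and -0.03 across the HFD livers. HFD-inulin array 3 thus lay within the range of the HFD arrays. Hnf4a itself measured 6.86, 6.86 and 6.77 in HFD-inulin arrays 1 to 3, and the relation of the targets to Hnf4a was not tested. The median over the targets was -0.24 among low-signal and -0.02 among high-signal arrays, and without HFD-inulin array 2 it was -0.10 with 19 of 26 lower. Cyp8b1, the sterol 12-alpha-hydroxylase, was singled out after its values were seen. It measured 7.42, 3.33 and 7.42 across the HFD-inulin livers, against 8.52, 8.01 and 8.32 across the HFD livers, so 1 array gave most of its difference of -2.23 (SE 1.07). Cyp8b1 and Cyp7a1, another target on this list, weigh heavily on the mean of -0.65 in HFD-inulin array 2. Cyp7a1 measured 1.31 there, against an HFD mean of 6.43. Markers of other cell types also varied along these arrays. Kupffer cell markers (6 measured) averaged -0.20, -0.29 and -0.0031 relative to their HFD mean across the HFD-inulin livers. Of the 6, 4 were lower, the median difference was -0.21, and 2 had an unadjusted p under 0.05 (5.15% of all probe sets had). Adipocyte markers (5 measured) averaged 0.45, 0.75 and -0.17 in the same order, through Fabp4 and Cidec, while the defining marker Adipoq measured 0.76 to 0.89 in all 6 arrays. Neutrophil markers (6 measured) averaged 1.84 in HFD-inulin array 2 and at most 1.502 elsewhere, through S100a8 (2.33, elsewhere at most 0.91) and S100a9 (2.34, elsewhere at most 1.43). The other 4, Camp, Mpo, Ngp and Ly6g, did not stand out in that array, where Ngp was at its lowest (0.68). The part of these cell types in the target values was not tested.

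Targets of the other factors gave fewer measured genes. Of 6 measured ONECUT1 targets, 4 were lower and 2 higher, the median was -0.30, 0 had groups that did not overlap, and 0 passed limma's threshold or an unadjusted p of 0.05. Cyp7a1, the rate-limiting enzyme of bile acid synthesis, measured 4.18, 1.31 and 7.18 across the HFD-inulin livers, against 7.24, 5.84 and 6.21 across the HFD livers. HFD-inulin array 2 was the lowest and array 3 was among the HFD values, so the difference of -2.21 (SE 1.36) came to -4.50 among low-signal and 1.15 among high-signal arrays. G6pc, the glucose-6-phosphatase gene, differed by 0.36, Ttr by -0.18 and Slc2a2, the hepatic glucose transporter gene, by -0.88 (SE 0.48). Without HFD-inulin array 2 the median of the list was -0.0021, with 3 genes lower and 3 higher, and without HFD-inulin array 3 it was -0.62.

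Of 11 measured FOXA targets, 6 were lower, with a median of -0.10, and of 11 measured CEBPA targets 8 were lower, with a median of -0.17. The shares of lower means among named genes are given above with the HNF4A targets. The groups did not overlap in 3 of each list (27.3%), against 11.5% of all named genes and 16.9% of those with a mean of at least 4. For FOXA these were Pck1, Cps1 and Igfbp1, the last higher in HFD-inulin, and for CEBPA they were Pck1, Cps1 and Apob. Pck1 and Apob were already among the separated HNF4A targets, so these shares are not separate results. In either list 0 passed limma's threshold (2 FOXA and 3 CEBPA targets had an unadjusted p under 0.05, as had 5.15% of all probe sets). The lists share genes with each other and with that of HNF4A. Cps1, the entry enzyme of the urea cycle, is in both and measured 9.18, 9.24 and 10.002 across the HFD-inulin livers, against 10.03, 10.34 and 10.11 across the HFD livers. Its difference of -0.68 (SE 0.22) again came mostly from arrays 1 and 2. Igfbp1, a FOXA target and binding protein of insulin-like growth factors, was higher in all 3 HFD-inulin arrays (4.65, 6.94 and 4.79) than in any HFD array (4.04, 4.35 and 4.13). The median of the FOXA list was 0.04 without HFD array 2, and leaving out HFD-inulin array 1 or 2 gave -0.04 or -0.05. That of the CEBPA list was -0.11 without HFD-inulin array 1.

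**Figure D4:**
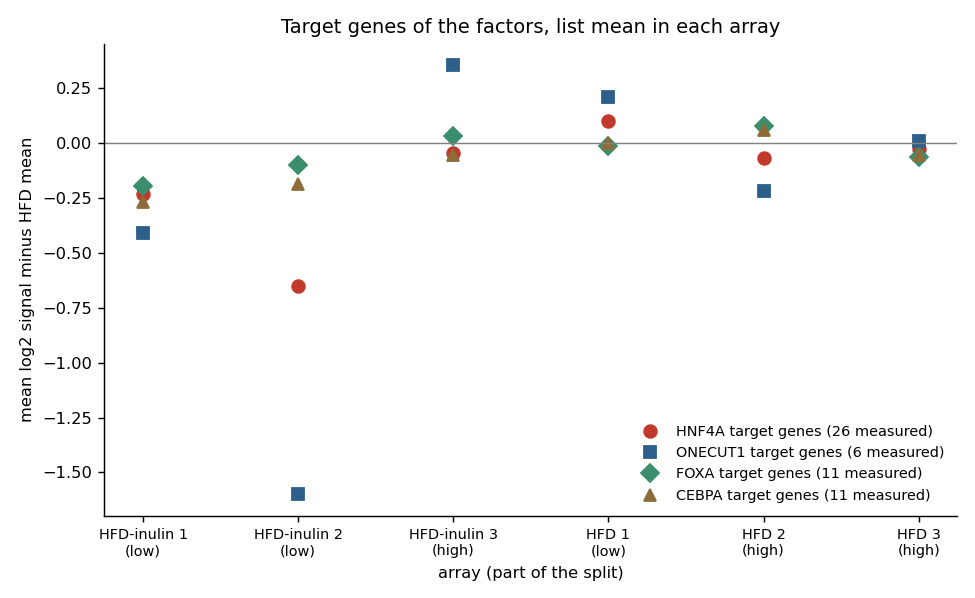
Mean log2 signal of each target list relative to its HFD mean (y axis) in each array (x axis, with its part of the split). HFD-inulin array 2 is lowest for the HNF4A targets (-0.65) and ONECUT1 targets (-1.60), and HFD-inulin array 3 lies near 0 for the HNF4A, FOXA and CEBPA targets. Cyp7a1, on the HNF4A and ONECUT1 lists, measured 1.31 in HFD-inulin array 2 (HFD mean 6.43) and weighs heavily on both low values.

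Genes of the fetal liver had group means of at most 3.49. Of 8 measured, 4 were higher and 4 lower, the median difference was -0.0025, and 0 passed limma's threshold or an unadjusted p of 0.05. Afp, the fetal serum protein gene, measured 0.88 to 1.19 over the 6 arrays. Cd24a, a marker of progenitor and biliary cells, reached 4.51 in HFD-inulin array 2 and lay between 2.82 and 3.22 in the other 5. Cholangiocytes express ONECUT genes too, and their markers averaged 1.82 to 2.09 in HFD-inulin and 1.79 to 1.92 in HFD. The highest average was in HFD-inulin array 2, where Krt19 measured 3.04, against 1.82 to 1.93 elsewhere. Krt7 and Epcam were also at their highest there, while Cftr, Sctr, Pkhd1 and Sox9 were not. The part of progenitor cells or cholangiocytes in the Onecut1 values was not tested.

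**Figure D5:**
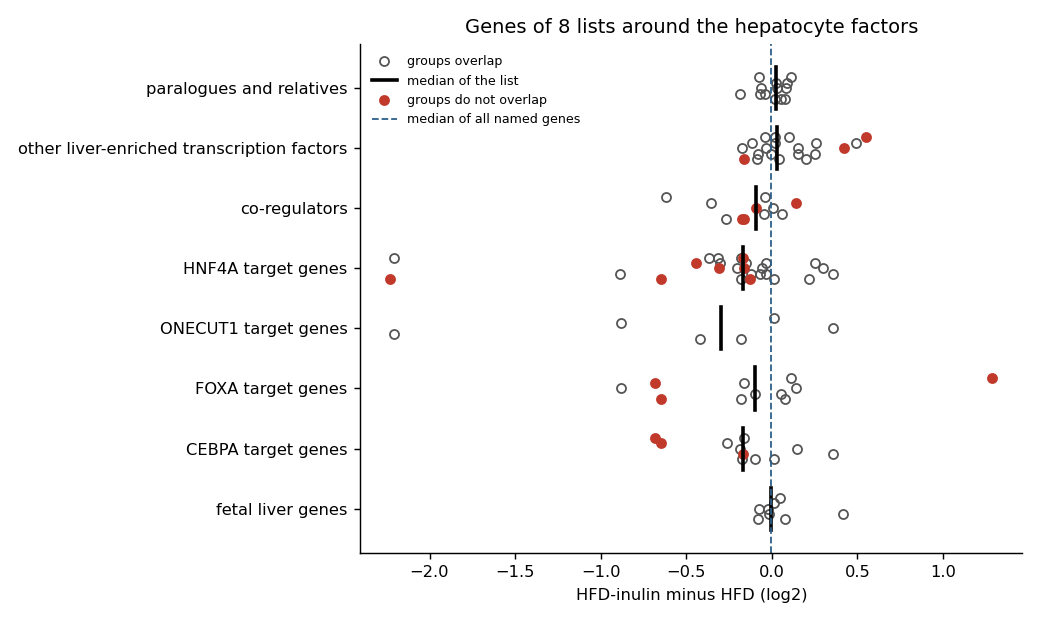
Difference HFD-inulin minus HFD on the log2 scale (x axis) of each measured gene in 8 lists (y axis); filled points have groups that do not overlap, black bars are list medians and the dashed line is the median of all named genes. The median is -0.17 for the 26 HNF4A targets and 0.02 for the 13 relatives, and Cyp8b1 and Cyp7a1 lie farthest to the left.

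The series was made to profile noncoding RNA, and some members have noncoding neighbours. Of 22 genes that RefSeq places over or next to the 8 members, 12 have a probe set. Hnf4aos, a lncRNA that overlaps Hnf4a, averaged 2.46 ± 0.32 (HFD-inulin) and 2.28 ± 0.15 (HFD, SD, n = 3 each), with overlapping groups and a difference of 0.18. Prox1os, which overlaps Prox1, measured 2.90, 3.58 and 3.22 across the HFD-inulin livers, against 2.94, 2.84 and 2.86 across the HFD livers, a difference of 0.35 (SE 0.16) with overlapping groups. Whether probes of an overlapping pair read both transcripts was not checked. Fam214a, the next gene to Onecut1 on the higher-coordinate side, measured 5.33, 5.53 and 5.97 across the HFD-inulin livers, against 6.58, 6.68 and 6.48 across the HFD livers. It differed by -0.97 (SE 0.16), opposite in sign to Onecut1. Of the other measured neighbours, 0 had groups that did not overlap.

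The genes whose profile over the 6 arrays was most like that of Hnf4a, among 4241 protein-coding genes with a mean of at least 4, were Sik3 (Pearson r = 0.991), Foxo3 (0.982), Gldc (0.960), Nr1d1 (0.954) and AI837181 (0.944). In all 5 the groups did not overlap, with HFD-inulin lower, as in 5.02% of named genes with a mean of at least 4. That separation follows from picking them for likeness to Hnf4a, whose groups lie far apart against their SD, and is no separate result. Their differences ran from -1.06 (Nr1d1) to -0.17 (AI837181). The genes most like Onecut1 were Hint1 (r = 0.996), Fez2 (0.995), Commd3 (0.989), Usp39 (0.989) and Ccdc124 (0.988). Their differences were smaller than that of Onecut1, from 0.20 (Usp39) to 0.34 (Hint1), and in 4 of the 5 the groups overlapped. These coefficients are over 6 arrays that include both groups and both parts of the split, were picked as the highest of many, and are a description of likeness.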

How the data were processed

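Mouse liver RNA was measured on 6 Affymetrix arrays. The values are the authors' deposited log2 signals per probe set, and the submitters' processing notes name Expression Console 1.0 (Affymetrix). How probes were summarized and background removed, and the genome build, is not given in the sources used here; base 2 was inferred from the value range. Array medians ran from 1.17 to 1.26. No scanner files were used, so no slide, scan or detection limit was tested.

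GEO's platform annotation, updated through RefSeq (GRCm38.p6), named 31258 of 65956 probe sets with 1 gene. The probe set of highest mean was kept per gene. HFD-inulin was compared with HFD by limma 3.58.1 (R 4.3.3) on all probe sets, unfiltered, without covariates, and two-sided p-values were adjusted (Benjamini-Hochberg, threshold 0.05) over the whole array. The fit was tested on simulated data. SEs and adjusted p-values come from this fit.

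The members and the gene lists were chosen with earlier results of these data known. Up to 4 genes of smallest unadjusted p were named per list, 5 most similar genes for Hnf4a and Onecut1, and neighbours by RefSeq. Of 10 marker lists, stellate cell markers averaged 3.84 to 4.23 in HFD-inulin and 4.00 to 4.15 in HFD. The labels do not say that arrays of the same replicate number are paired, and the main fit does not pair them. Deviations from the group mean correlated at 0.26, -0.28 and 0.40 for numbers 1 to 3. The best correlation with another number was -0.15, 0.40 and 0.42 in the same order. With so few arrays per group this cannot decide whether they are paired. Alternatives were each array left out, a block for the replicate number or for the array split, quantile normalization, centring on array medians, array weights, a trended and robust prior, ordinary least squares, leaving out dim probe sets, and averaging a gene's probe sets.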

Additional observations from a re-analysis of the deposited data

How the results depend on the processing

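Hnf4a, Onecut1, Foxa1, Foxa2, Foxa3 and Cebpa kept their sign under each of 7 other settings of the fit and each array left out. Part of this was fixed in advance. The trended and robust prior, the replicate block and leaving out dim probe sets do not change a member's difference. For Hnf4a and Onecut1, whose groups do not overlap, leaving out an array cannot turn the sign. No member passed limma's adjusted threshold under any of these settings. The Hnf4a difference ran from -0.72 (quantile normalization) to -0.56 (median centring), and from -0.62 to -0.57 with 1 array left out. For Onecut1 the ranges were 1.202 to 1.72 and 1.27 to 1.91. The Onecut2 difference turned to -0.0145 with the array split as a block, and ran from -0.0119 to 0.088 with 1 array left out. The Prox1 difference ran from -0.2406 to 0.0154 with 1 array left out, positive without HFD-inulin array 1. The cause was not tested. Leaving out 1 array gave Foxa1 differences of 0.05 to 0.37, Foxa3 of -0.36 to -0.09 and Cebpa of -0.52 to -0.13. The trended and robust prior called 4 probe sets instead of 0, none of them a member, and ordinary least squares called 0. With the replicate block in the fit, 0 were called, and the Hnf4a and Onecut1 differences were -0.60 and 1.52, since the groups are balanced over the numbers. Of the alternative list medians, 110 stayed within the spread between arrays. The 2 that moved more were the other liver-enriched factors without HFD-inulin array 3 (0.12) and the FOXA targets without HFD array 2 (0.04). That bar is wide where the arrays of a list differ much. The ONECUT1 target median (-0.299 in the main fit) counted as unmoved at -0.0021 without HFD-inulin array 2 and at -0.62 without HFD-inulin array 3. The trended and robust prior, the replicate block and averaging a gene's probe sets left every list median unchanged. Each member has 1 probe set, so the mean over a gene's probe sets changes nothing for them. Signals close to an array's median stand little above background, which limits Hnf4g, Afp and other dim genes.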
